A study of Drosophila melanogaster with 4 samples.

Results

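The genes for the chemosensory receptors of Drosophila melanogaster were followed in a map of Doublesex binding. They were taken as the protein-coding genes whose symbol is Or, Gr or Ir followed by digits and at most a pair of letters, with the odorant co-receptor gene Orco added. The rule found 180 receptor genes among 13968 protein-coding genes on the arms. They fell into 60 odorant receptor (Or) genes with Orco, 60 gustatory receptor (Gr) genes and 60 ionotropic receptor (Ir) genes. Doublesex-bound chromatin was recovered and sequenced (ChIP-seq), with an antibody against green fluorescent protein according to the description of the samples. Their antibody field names dsx instead, so recovery of untagged Doublesex was not settled here. Whole prepupae of 24 h were used, with males and females pooled, from a transgenic strain labelled dsx-GFP that stably expresses Doublesex with the fluorescent protein at its C terminus. All 4 samples belong to 1 group, labelled as biological replicates 1 to 4, so every sample carries the tagged dsx. Control samples were not analysed here. The labels do not say that the replicates came from separate collections of animals, so the SD over replicates measures only the spread between these samples.

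Odorant receptors sit in the membrane of olfactory neurons as channels that need Orco, gustatory receptors detect sugars, bitter compounds and carbon dioxide, and ionotropic receptors, related to glutamate receptor channels, detect acids, amines, humidity and temperature together with Ir8a, Ir25a or Ir76b. Most of these receptors are made in small sets of sensory neurons of the antenna, mouthparts and legs, and several detect pheromones and act in courtship. Doublesex, a transcription factor with male and female forms, acts last in the sex determination pathway, and some taste and olfactory neurons differ between the sexes.

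Receptor genes were rarely near a Doublesex summit. Of the 180 genes, 3 (1.67%) had a summit of the authors' reproducible list within 1 kb of an annotated transcript start, against 26.2% of all protein-coding genes. These 3 genes, called bound here, were 1 odorant receptor gene (Or65a), 1 gustatory receptor gene (Gr77a) and 1 ionotropic receptor gene (Ir60a). A summit is the position of highest enrichment within a peak, and the reproducible list holds 9154 of them. Receptor genes are short, mostly with a single start, so the background was also counted in genes outside the families with a span between 1212 and 4042 bp, the 5th and 95th percentiles of the receptor genes. Of those genes 23.3% were bound, of those that also had a single annotated start 20.1%, and of those that in addition had no other protein-coding start within 1 kb 12.3%. With the same limits on the receptor genes, 3 of 162 (1.85%), 3 of 155 (1.94%) and 3 of 125 (2.4%) were bound. No test of the difference was made. Chromatin came from whole animals, so binding in few cells and weak binding in many cells cannot be told apart.

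Or65a, whose receptor is reported to take part in the response to a male pheromone, had a strong summit outside any annotated gene. The gene (FBgn0041625) spans 3L:6320611-6322098 on the plus strand of dm6, and its summit at 3L 6320182 lay 429 bp upstream of the start in intergenic sequence. The summit had a signal value of 848.9, the authors' own score, and stood 2051st of the 9154 reproducible summits. In the replicate lists the same site stood at rank 3730, 2793, 2004 and 1570 in replicates 1 to 4, with signal values of 112.3, 184.7, 268.6 and 267.5. It was thus among the strongest 5000 of the 30000 summits in every replicate. Near the start of the neighbouring gene Or65b, weak summits stood at rank 23085 in replicate 2 and 26171 in replicate 3. In the reproducible list Or65b and the next gene, Or65c, had no nearer summit than that of Or65a, 5430 bp and 7426 bp from their starts. The 101 bases centred on the summit (3L:6320132-6320232, plus strand) are printed because they hold the 7-base core of the Doublesex motif, ACAATGT, which is in capitals and reads ACATTGT on this strand.
Or65a summit window: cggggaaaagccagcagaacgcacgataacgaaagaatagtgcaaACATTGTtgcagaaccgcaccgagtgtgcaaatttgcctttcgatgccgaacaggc
The core was found in such windows at 8.06% of all reproducible summits, and a match is a description of the sequence. The GC content of the window was 50.5%, against a median of 37.6% over the reproducible summits.

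Gr77a had the summit nearest to a start but the weakest of the 3. This gustatory receptor gene (FBgn0045474) spans 3L:20737569-20739430 on the minus strand, within the gene CG13252. Its summit at 3L 20739565 lay 135 bp upstream of the start, in an intron of CG13252, with a signal value of 296.2 and rank 7816. In replicates 1 to 4 the nearest summit stood at rank 19287, 16576, 6734 and 5686. It was within 100 bp of the reproducible position in all 4 lists, but among the strongest 10000 only in replicates 3 and 4. The reproducible list was made from replicates 2, 3 and 4, so replicate 1 had no part in it. The window around this summit (3L:20739515-20739615, minus strand, the strand of Gr77a) is printed for contrast with that of Or65a. It held neither ACAATGT nor ACAAAGT on either strand, and has no capitals.
Gr77a summit window: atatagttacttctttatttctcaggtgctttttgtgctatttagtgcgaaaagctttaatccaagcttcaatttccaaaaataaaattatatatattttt
Its GC content was 24.8%, and 12.8% of the reproducible summits had a window at or under 25% GC.

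Ir60a had the strongest summit of all receptor genes. The gene (FBgn0034994) spans 2R:24249055-24251303 on the minus strand and lies within nord, which encodes a secreted modulator of BMP signalling. The summit at 2R 24252251 lay 948 bp upstream of the start of Ir60a, in an intron of nord, so it was just inside the limit of 1 kb. It had a signal value of 1878 and stood 550th of the reproducible summits. In replicates 1 to 4 it stood at rank 701, 695, 523 and 371, among the strongest 1000 in each. Another reproducible summit, of rank 1178, lay next to it just beyond the limit. The window around the stronger summit held 2 copies of ACAAAGT, a variant of the core, and 1 match of the longer degenerate Doublesex consensus. The summit was closer to the start of Ir60a than to any other annotated start of a protein-coding gene, and which of the genes over it is affected was not measured.

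**Figure D1:**
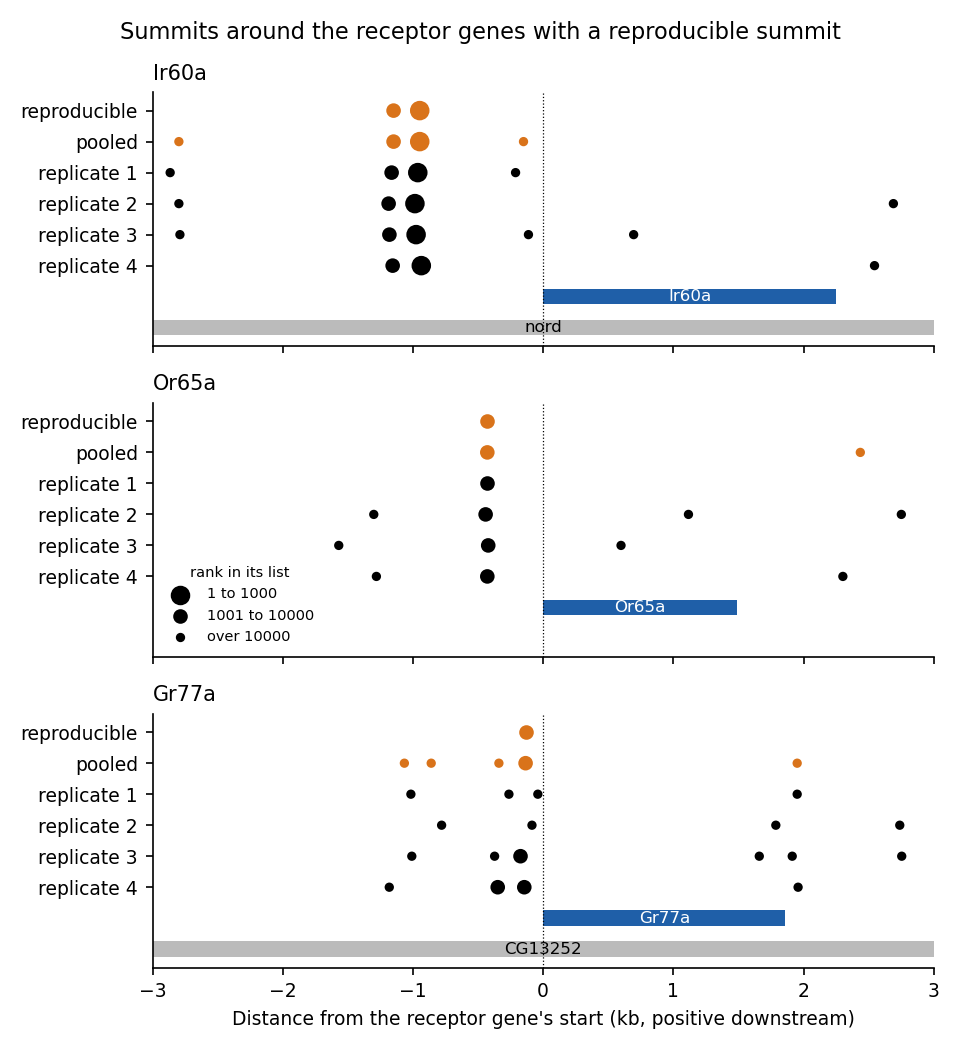
Positions of summits within 3 kb of the starts of Ir60a, Or65a and Gr77a (horizontal axis, kb from the start, positive downstream), with 1 line for each list and the dot size giving the rank in that list; blue bars are the receptor genes and grey bars the genes over them. Near Or65a and Ir60a the strong summits stand at the same place in all 4 replicates, while at Gr77a replicates 1 and 2 hold only summits of rank over 10000.

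The replicates gave the same picture when each was read alone. Among the strongest 10000 summits of each list, 3, 5, 4 and 4 receptor genes had a summit within 1 kb of a start in replicates 1 to 4, that is 1.67, 2.78, 2.22 and 2.22%. The mean was 2.22% ± 0.454 (SD, n = 4), beside 29.1% ± 1.74 for all protein-coding genes. In each replicate the receptor genes were 25.3 to 28.5 percentage points lower. The SDs are over lists read at the same genes, so they do not measure the spread among genes. Or65a and Ir60a were the 2 receptor genes (1.11%) with such a summit in all 4 replicates, against 19.3% of all genes. A summit among the strongest 10000 of at least 1 replicate was found at 7 receptor genes (3.89%), against 39.6% of all genes. Besides the bound genes these were Or67a, Gr47b, Gr5a and Gr63a.

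**Figure D2:**
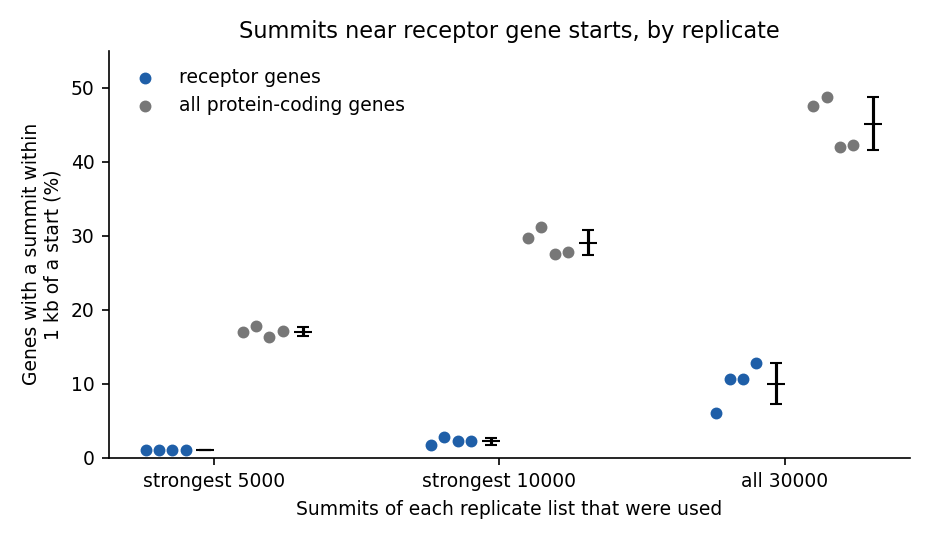
Percent of genes with a summit within 1 kb of a start (vertical axis) in each of the 4 replicate lists, from the strongest 5000, the strongest 10000 or all 30000 summits, for receptor genes (blue) and all protein-coding genes (grey); the bars give mean ± SD. The receptor genes average 1.11, 2.22 and 10%, against 17.1, 29.1 and 45.1% for all genes, and lie below all genes in every replicate.

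Whole lists of 30000 summits reach far into weak signal, and there more receptor genes appeared. With them 11, 19, 19 and 23 receptor genes had a summit in replicates 1 to 4, a mean of 10% ± 2.8 against 45.1% ± 3.56 of all genes (SD, n = 4). Replicate 1 held the fewest. No full list had a summit near 148 of the receptor genes (82.2%), against 42.0% of all genes. These were 51 of the odorant, 51 of the gustatory and 46 of the ionotropic receptor genes. Of the rest, 10 (5.56%) had a summit in 1 list, 11 (6.11%) in 2 lists, 4 (2.22%) in 3 lists and 7 (3.89%) in all 4. Over all genes these shares were 8.8, 9.0, 7.08 and 33.1%. Those 7 genes were Ir60a, Or65a, Gr77a, Or67a, Gr47b, Gr93a and Gr97a.

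At the other 4 of these genes the strongest summit within 1 kb was weak and changed place between replicates, so the ranks do not follow a single site. Its positions spread over 459 bp at Or67a, 461 bp at Gr47b, 523 bp at Gr97a and 420 bp at Gr93a, against 20 bp at Or65a, 49 bp at Ir60a and 133 bp at Gr77a. The strongest summit near Or67a stood at rank 6086, 13510, 8367 and 15442 in replicates 1 to 4. That near Gr47b stood at rank 25895, 9379, 13453 and 8009, with the weakest in replicate 1. Near Gr97a the ranks were 12217, 14233, 12788 and 10853. Near Gr93a, which is needed to taste caffeine, they were 18094, 26559, 13315 and 18393. None of these 4 genes was bound.

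**Figure D3:**
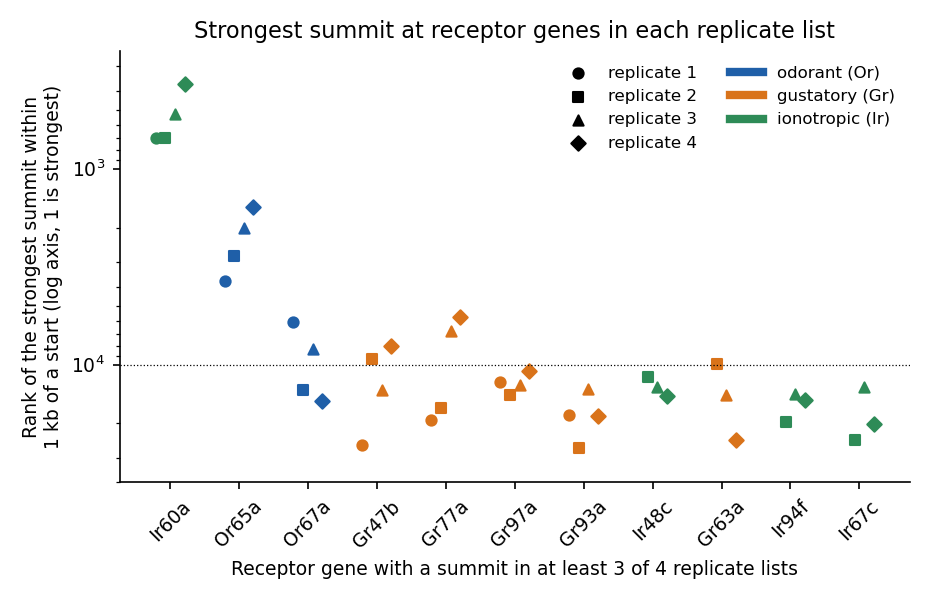
Rank of the strongest summit within 1 kb of a start (vertical log axis, the strongest on top) in each replicate, for the receptor genes with a summit in at least 3 of the 4 replicate lists; the summit need not be at the same place in each replicate, marker shapes are replicates, colours are families and the dotted line is rank 10000. Ir60a (rank 371 to 701) and Or65a (1570 to 3730) stand above the others in every replicate.

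The pooled list, made by the authors from replicates 2, 3 and 4, added weak sites within 1 kb of a start of 13 further receptor genes. With its 30000 summits 16 receptor genes (8.89%) had a summit within 1 kb of a start, namely 3 odorant, 5 gustatory and 8 ionotropic receptor genes, against 41.6% of all genes. The strongest of these additional sites were near Ir48c (rank 12728, 692 bp from the start), Gr97a (rank 13048, 650 bp) and Orco (rank 14063, 869 bp). The site of Orco, which every odorant receptor channel needs, had a summit within 100 bp in 2 replicates, at rank 19286 in replicate 3 and 11301 in replicate 4. Gr63a, which forms the carbon dioxide receptor with Gr21a, had a pooled summit 305 bp from its start at rank 16320, with ranks of 9990, 14267 and 24259 in replicates 2, 3 and 4. Some of these sites also lie near the start of another gene. CG5521 starts 445 bp from Gr97a, Lamtor4 297 bp from Gr63a, CG34241 585 bp from Ir68b and ths 873 bp from Ir48c. The pooled summit near Gr97a was closer to the start of CG5521. For the sites near Gr63a, Ir68b and Ir48c the closer start was not determined here. Which gene each site belongs to was not tested. The neighbours Ir94f, Ir94g and Ir94h each had a pooled summit, at rank 18651, 29953 and 17092. Ir94f and Ir94g shared the summit of rank 29953, which lay 580 bp from the start of Ir94g and 1418 bp into Ir94f.

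No receptor gene held a reproducible summit between its start and end. Among all protein-coding genes 16.4% held such a summit, and among genes of the same span range 8.21%. In the pooled list 2 receptor genes (1.11%) did, against 27.3% of all genes. These were Or67a, with a summit 117 bp inside the gene at rank 15512, and Ir94f, with its best at 406 bp. In the full replicate lists 3, 5, 10 and 7 of the 180 receptor genes held a summit in replicates 1 to 4, while 32.8, 32.3, 27.0 and 27.6% of all genes did. The median span was 1691 bp for receptor genes and 2164 bp for all genes.

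Most receptor genes had no other protein-coding start close by. Another protein-coding start was within 1 kb of 35 receptor genes (19.4%), against 42.8% of all genes. Over all genes, 34.4% of those with such a neighbour and 20.0% of those without were bound. The 3 bound receptor genes were among the 145 without such a neighbour. Within the span of another protein-coding gene lay 25 receptor genes, and 2 of these were bound, Ir60a in nord and Gr77a in CG13252. Among the 155 others 1 was bound. Of the 24 host genes 9 held a reproducible summit in their span, as did 16.4% of all genes. The hosts span 4426 to 137878 bp, against a median of 2164 bp for all genes. Or1a lies in CG3777, whose span of 70802 bp held 6 such summits, yet its start was 19864 bp from the nearest. Ir48c lies in ths, an FGF gene with 3 summits, and was 8930 bp from the nearest.

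Receptor genes also lay far from reproducible summits. The median distance from a receptor gene's start to the nearest reproducible summit was 16552 bp (quartiles 8546 and 34827 bp), against 5761 bp (816 and 15735 bp) for all genes and 5908 bp for genes of the same span range. The median was 17054 bp for the odorant, 20070 bp for the gustatory and 14650 bp for the ionotropic receptor genes. Receptor genes within 5 kb of a summit numbered 26 (14.4%, against 47.0% of all genes). Within 50 kb lay 155 receptor genes (86.1%, against 93.7% of all genes), and 25 were farther away. The farthest were Ir41a, a receptor for amines, at 433071 bp, and Or35a at 122098 bp. Within 2 kb lay 10 receptor genes (5.56%, against 31.9% of all genes), and 3 of them within 1 kb (1.67%, against 26.2%). The other 7 were Gr89a (1330 bp), Gr5a (1419 bp), Gr97a (1684 bp), Ir85a (1730 bp), Gr93a (1937 bp), Or85f (1958 bp) and Or45b (1959 bp). For 110 of the 180 genes the nearest summit lay within 1 kb of another gene's start. For 13 genes no other protein-coding start was closer to that summit than their own, among them Gr89a, Gr93a, Or45b and Gr93d, the last 2509 bp from a strong summit of rank 836. The counts of 110 and 13 genes were not made over all genes, so neither is read as a trait of receptor genes.

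**Figure D4:**
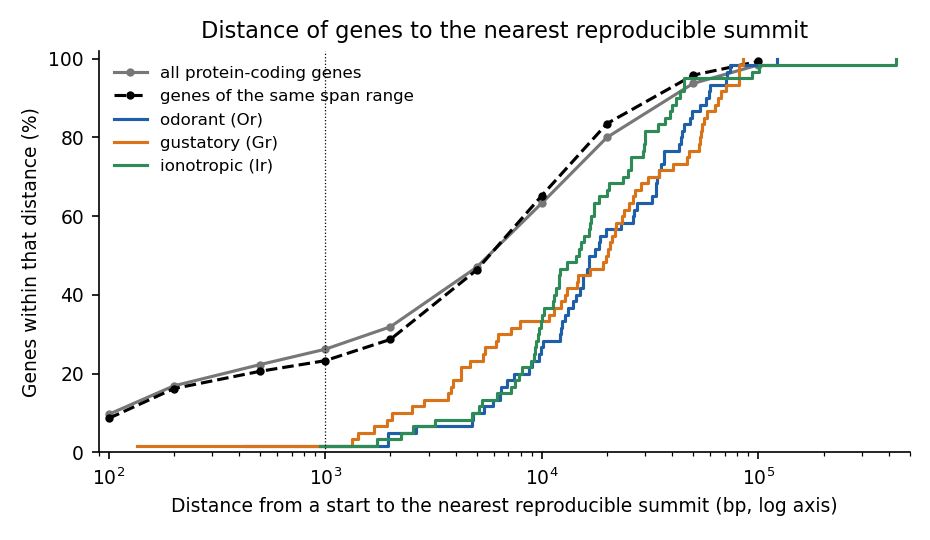
Cumulative percent of genes (vertical axis) within a given distance of the nearest reproducible summit (horizontal log axis, bp) for the 3 receptor families, for all protein-coding genes and for genes of the same span range. All 3 receptor curves lie below both backgrounds up to 20 kb, with 31.1% of receptor genes and 63.3% of all genes within 10 kb.

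Many receptor genes stand in tandem clusters. With 5′ ends at most 10 kb apart, 80 receptor genes formed 28 clusters of at least 2 genes. A bound gene was in 1 cluster (Or65a to Or65c), a pooled summit in 3 clusters, and in 21 clusters no full replicate list had a summit within 1 kb of a start. The sugar receptor cluster Gr64a to Gr64f covers 10807 bp of 3L with 6 genes, and its nearest summit was 19813 bp from Gr64f. The cluster of 6 genes Ir7b to Ir7g on X had its nearest summit 7233 bp from Ir7g, near the start of Nek2. The 5 genes of the Gr22 cluster were 46864 to 57719 bp from theirs, and Gr22e alone had a summit, at rank 29754 of replicate 4. Of the genes in clusters 1 of 80 (1.25%) was bound and of those outside 2 of 100 (2.0%), against 26.2% of all genes. In no full replicate list were 70 genes in clusters (87.5%) and 78 outside (78.0%), against 42.0% of all genes.

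The role lists are short, so at the 26.2% of all genes, or the 12.3% of genes of like span with a single start and no close neighbour, most would hold few bound genes, and nothing is read from a single list. Of the 12 receptor genes for pheromones and courtship Or65a was bound, with distances from 429 to 55205 bp and a median of 11120 bp. Or47b, which promotes courtship in males, had its nearest summit 2634 bp away, near the start of sha. Or67d, the receptor for the male pheromone cis-vaccenyl acetate, was 10184 bp from its nearest summit, and had a summit of replicate 3 within the gene but none within 1 kb of its start in any list. Or88a was at 16248 bp. Among taste receptors that restrain or sustain courtship, Gr32a was at 7185 bp, Gr39a at 14615 bp, Gr68a at 34825 bp and Gr33a at 55205 bp. The leg taste receptor genes Ir52a, Ir52c and Ir52d shared a summit near the start of Pgant1, at 12056, 7487 and 5106 bp. Ir84a, whose receptor detects food odours that promote courtship, was at 29998 bp. Of these 12 genes Or65a alone had a summit within 1 kb of its start in any full replicate list.

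Of the 4 co-receptor genes none was bound. Ir25a was 2545 bp from a strong summit of rank 364 (signal value 2280) near the start of tank. Orco was at 9913 bp, Ir8a at 11643 bp and Ir76b at 29474 bp. In the replicate lists Ir25a had a summit in replicate 2 only, at rank 28848, and neither Ir8a nor Ir76b had any.

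The remaining lists, of 9, 3, 2, 5 and 4 genes, held no bound gene. Among 9 sweet taste genes Gr5a, the trehalose receptor gene, was nearest at 1419 bp, from a summit closer to Tre1, which starts 640 bp from Gr5a. The strongest summits within 1 kb of the Gr5a start stood at rank 15034 in replicate 1 and 8672 in replicate 2. These summits were also closer to the start of Tre1, and replicates 3 and 4 had none within 1 kb of Gr5a. Gr61a was at 3677 bp, the fructose receptor gene Gr43a at 20715 bp and the Gr64 genes between 19813 and 28843 bp. In the bitter taste list, which holds 3 of the known bitter receptor genes, Gr89a was at 1330 bp, Gr93a at 1937 bp and Gr66a at 2025 bp. Gr32a and Gr33a, listed under courtship, also serve bitter taste and were at 7185 and 55205 bp. The nearest summit of Gr66a was at BI-1, while those of Gr89a and Gr93a were nearest to the receptor gene itself. The carbon dioxide receptor genes were at 4219 bp (Gr63a) and 40269 bp (Gr21a). Of the 5 genes for temperature and humidity, Gr28b was at 4230 bp, Ir68a at 6233 bp, Ir21a at 11956 bp, Ir40a at 25909 bp and Ir93a at 30037 bp, and none had a summit near a start in any replicate list. The acid and amine receptor genes Ir64a, Ir92a, Ir75a and Ir41a were 17365 bp or more away and had none either.

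**Figure D5:**
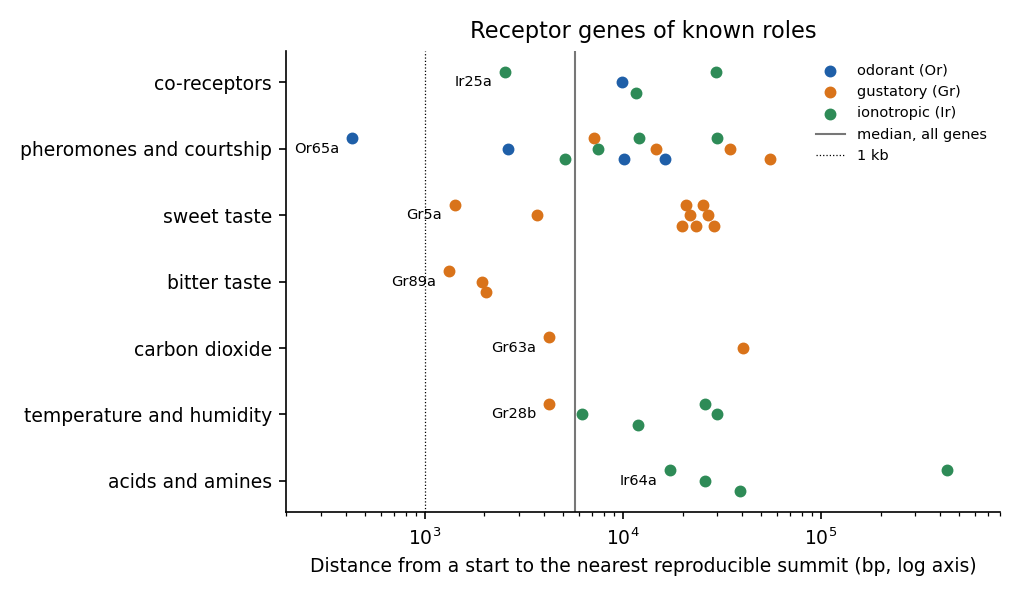
Distance from a start to the nearest reproducible summit (horizontal log axis, bp) for the 39 receptor genes of the role lists, 1 point each, coloured by family; the dotted line is 1 kb, the grey line the median of all genes (5761 bp), and the name is that of the nearest gene in each role. Or65a alone lies within 1 kb, and Ir41a is farthest at 433071 bp.

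The core of the Doublesex motif was present at a few receptor promoters, none of them bound. From 250 bases before to 50 bases after the 5′ end of the gene, ACAATGT was found on either strand in 5 of 180 receptor promoters (2.78%), against 4.62% of all promoters. ACAAAGT was found in 7 (3.89%, against 6.34%), and the longer consensus in 2 (1.11%, against 4.11%). Of all genes with ACAATGT in this window 34.6% were bound. The 5 receptor genes were Gr93c, Ir94h, Or67d, Gr36c and Gr36a, with their nearest reproducible summits at 3903, 9168, 10184, 63211 and 66931 bp. Ir94h had a pooled summit and summits in 2 replicate lists, and the other four had none within 1 kb of a start in any list. The median GC content of the promoters was 39.3%, against 38.0% over all genes. Sites at Ir94h (3R:23487412-23487438), Gr36c (2L:17180297-17180323) and Gr36a (2L:17176459-17176485) are printed on the plus strand with the core in capitals, to show cores that stand in a receptor promoter without a reproducible summit.
Ir94h promoter site: tccaaagcaaACATTGTatcaaagtac
Gr36c promoter site: aaggcaaaccACATTGTggacactttc
Gr36a promoter site: acttactcagACAATGTgaaatggagc
They begin 79, 31 and 149 bp before the start of the gene. At Ir94h and Gr36c the core reads as its reverse complement, as at the Or65a summit.

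Genes that work with the receptors were read by the same rule. A list of 21 genes for odour and pheromone detection outside the families, for signalling and for the specification of sense organs held 5 bound genes (23.8%), beside the 26.2% of all genes. Of the detection genes Snmp2, which encodes a membrane protein related to a pheromone sensor, had a summit at 911 bp (signal value 1614, rank 736), and the pheromone-sensing channel gene ppk29 at 662 bp (454.9, rank 4695). The related ppk23 was at 1865 bp, and lush, which encodes a pheromone-binding protein, at 6251 bp. The phospholipase C gene norpA was bound at 593 bp (388.1), the olfactory neuron transcription factor gene pdm3 at 97 bp (389.4) and fru, whose male proteins direct courtship circuits, at 644 bp (359.5). Among families of sensory function, 3 of 51 odorant-binding protein genes (5.88%) and 1 of 30 pickpocket channel genes (3.33%) were bound, with median distances of 10732 and 7288 bp. In the pooled list these shares were 23.5% and 10%, beside 8.89% of the receptor genes and 41.6% of all genes. No test was made of any difference between the families.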

How the data were processed

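ChIP-seq peak lists of 4 replicate samples were used, with a pooled and a reproducible list. Per the deposited text notes, positions are on dm6, and the authors called each replicate's list against a control, pooled replicates 2, 3 and 4, and thresholded the reproducible list on the irreproducible discovery rate. The sources used here do not give aligner, caller or threshold. The signal value is the authors' deposited score of each peak and is not comparable between lists, so ranks within a list are compared. Each deposited summit position, given as an offset from the start of the interval, was converted to a 1-based coordinate. Each replicate and pooled list holds 30000 summits, a fixed length that counts no binding sites, and sequencing depth is unknown. Signal tracks were not used here.

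Ensembl release 115 provided the gene models, and RefSeq the sequence of the same assembly, with arm lengths compared. Promoters were read from that genome in place of the RefSeq promoter table that had been planned. Genes with a reproducible summit at most 1000 bp from any annotated start were called bound. Both strands were searched for motifs, in promoters of 300 bases and up to 50 bp from summits. The 23 genes on Y have no distance. Receptor genes named are those bound, those with one of the strongest 10000 summits in all 4 replicates and the 39 genes of 7 role lists. Further genes were named after their values were seen. The receptor genes, role lists and gene lists were chosen with earlier results of these data known. The design has 1 group, so there are means and SDs over replicates and no p-values. The labelled whole organism was not checked against markers, since the lists hold no expression. An outlying replicate was sought in 6 measures by Dixon's ratio and none was found. Counting was tested on simulated data and run with Python 3.11.15, pandas 2.3.3 and numpy 2.4.6. Alternatives covered the distance, starts, peak list, threshold, replicates and motif.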

Additional observations from a re-analysis of the deposited data

How the results depend on the processing

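Of the 180 receptor genes 3 were bound. With a limit of 2000 bp 10 were, against 31.9% of all genes, and with the pooled list 16, against 41.6%. With 500 bp there were 2, against 22.3%, and with the 4577 strongest reproducible peaks also 2, against 15.4%. The count was 3 with only the 5′ end of each gene, without secondary summits, and without the 2 receptor genes in repeated sequence, Or19a and Or19b. It was also 3 among the receptor genes limited by span, starts and neighbours. The repeat setting and the limits by span, starts and neighbours, here and in the backgrounds, were chosen after seeing the data. The mean share of receptor genes with a replicate summit was 1.11% from the strongest 5000 summits, 2.22% from the strongest 10000 and 10% from all 30000. For all genes these means were 17.1, 29.1 and 45.1%. From the strongest 10000 the mean for receptor genes lay between 2.04 and 2.41% without each replicate in turn. Receptor genes with a summit in all replicates numbered 7 from all 30000 summits, against 33.1% of all genes, and 2 from the strongest 5000 or without any replicate. The longer consensus was found in 2 promoters, against 5 with the core. The median distance was 27347 bp from those 4577 peaks (10479 bp for all genes) and 16592 bp from 5′ ends alone. In the gene span, 2 receptor genes held a pooled summit, against 27.3% of all genes. No paired analysis was possible because there is 1 group. Weak sites depend on the fixed list length, and depth, which is unknown, limits what the lists could show at receptor genes made in few cells.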

Other observations

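Receptor genes entered the pooled list late. From its strongest 1000 summits 1 receptor gene (0.556%) had a summit within 1 kb of a start, against 4.45% of all genes. From the strongest 5000 there were 2 (1.11%, against 16.7%), from the strongest 10000 there were 3 (1.67%, against 27.8%), from 15000 there were 8 (4.44%, against 34.3%) and from 20000 there were 13 (7.22%, against 37.8%). Between ranks 10000 and 30000 the receptor genes thus went from 3 to 16 (1.67 to 8.89%), while all genes went from 27.8 to 41.6%.

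The receptor genes lay on all large arms, with 46 on 2R, 43 on 3R, 35 on 3L, 31 on 2L and 25 on X. The bound genes were on 3L (2 genes) and 2R (1 gene). Repeated sequence covered more than 50% of the surroundings of Or19a (73.0%) and Or19b (74.5%) only, against 2.35% of all genes. Or19a was 4761 bp and Or19b 53551 bp from the nearest reproducible summit.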
